A study of Mus musculus with 20 samples.

Results

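This section describes 37 genes of the lysosome, the acidic organelle that degrades proteins, glycans and lipids, in livers of C57BL/6 mice kept on chow or on a high-fat diet (HFD). The 37 were chosen by name, as soluble hydrolases, membrane proteins, proton pump subunits and a regulator of the organelle, out of 55401 gene IDs in the deposited count table by a rule that uses no measured value, though with earlier results of these data known. All 37 were found and all 37 passed the filter on low counts. The livers fall into 2 groups that share the genotype label WT: 10 libraries from mice on a standard rodent chow (chow 1 to 10) and 10 from mice given the HFD for 12 weeks (HFD 1 to 10). The HFD held 60% fat, 20% carbohydrate and 20% protein. The design text counts 3 groups on the HFD, whereas the 10 HFD samples carry identical labels, so they were taken as 1 group. It is not stated in the labels whether every sample came from its own animal, and a p-value here therefore reflects only how far these samples spread. No batch is labelled, so diet and any shared handling cannot be told apart.

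Lysosomal enzymes are made in the endoplasmic reticulum, tagged with mannose 6-phosphate in the Golgi and delivered by receptors to the organelle, where a proton pump keeps the lumen acid. Many of their genes share an E-box element (the CLEAR element) bound by TFEB and its relatives TFE3 and MITF, which enter the nucleus when mTORC1 at the lysosomal surface is inactive. In liver, hepatocytes use lysosomes for autophagy and the breakdown of lipoproteins and lipid droplets. Macrophages, including the resident Kupffer cells, are especially rich in lysosomes, and Cd68 and Laptm5 are largely restricted to leukocytes.

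Chow libraries held between 34727227 and 49065587 counts, and HFD libraries between 20111896 and 90033879. The share of rRNA was 20.4% in chow 9 and 13.3% in HFD 1, against at most 0.807% in any other library. The libraries HFD 1 and HFD 2 stood apart, with mitochondrial counts at 75.6% and 94.4% of their totals against 1.34% to 3.10% elsewhere, which left 2237670 and 2860976 counts of other RNA once rRNA was also set aside. In these libraries 3 counts, the limit that a count of 0 allows, correspond to 0.866 and 0.524 CPM (counts per 1000000, on library sizes scaled by TMM), against at most 0.0958 CPM in any other. The median of all tested genes, relative to the chow mean, was −0.75 in HFD 1 and −0.30 in HFD 2 on the log2 scale, and the median of the 37 genes was −0.84 and −0.51. In HFD 3 to 10 the median of the 37 lay between 0.21 and 0.43 while that of all genes lay within 0.03 of 0. HFD 1 held the lowest HFD value of 20 of the 37 genes and HFD 2 that of 13. The counts of called genes, and the log2 changes of the 37 genes and of the other genes named, are therefore also given without HFD 1 and HFD 2. The hepatocyte marker Alb was at 50249 to 81263 CPM in chow and 12767 to 63581 CPM in HFD, so this defining hepatocyte gene was abundant in every library.

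In chow liver the 37 transcripts spanned a wide range of levels, compared here per length in the authors' FPKM (fragments per kilobase of gene, scaled to the library total). Lamp1, a major glycoprotein of the lysosomal membrane, stood highest at 279 ± 24.0 FPKM (mean ± SD, n = 10). Psap, the precursor of the saposins that present sphingolipids to hydrolases, followed at 211 ± 24.4 FPKM. Then came the cysteine cathepsins Ctsz at 146 ± 21.3, Ctsb at 124 ± 13.9 and Ctsl at 114 ± 13.0 FPKM, and these 5 genes made up 55.2% of the FPKM summed over the 37. At the low end Gla stood at 2.05 ± 0.323, Idua at 1.05 ± 0.235, Tfeb at 0.911 ± 0.180 and Ctsk, the osteoclast cathepsin, at 0.470 ± 0.221 FPKM. Neighbours in this order had overlapping ranges, except that Ctsf lay above Mcoln1 and Mcoln1 above Gla in every chow library. The leukocyte genes Cd68 and Laptm5 stood at 14.5 ± 4.24 and 6.17 ± 1.62 FPKM.

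**Figure D1:**
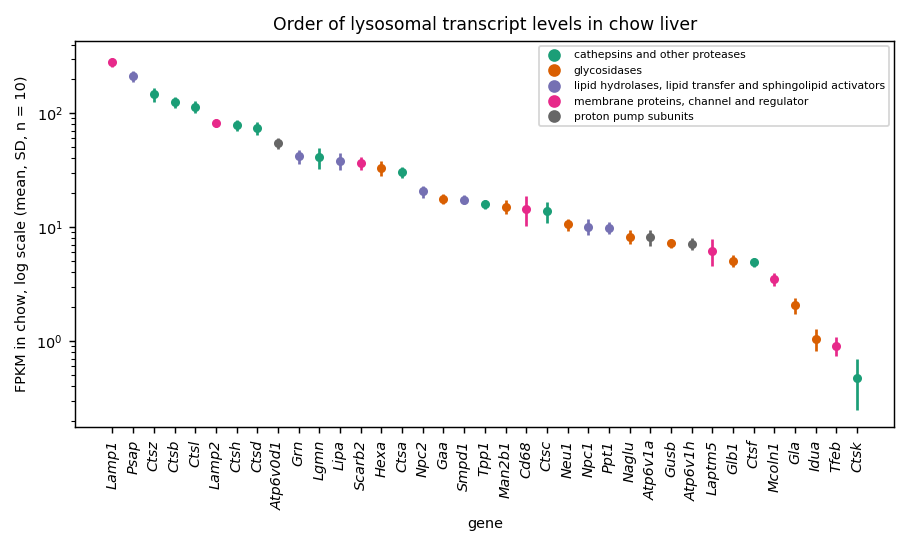
FPKM in chow (log axis) for the 37 genes, ordered from high to low and coloured by role. Points are means and bars SD over 10 chow libraries, and the order runs from Lamp1 at 279 FPKM to Ctsk at 0.470 FPKM.

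Promoters are shown for 4 of the genes, 2 that were called higher in HFD (Gla and Ctsd) and 2 that were not (Lamp1 and Mcoln1), because both kinds hold the E-box letters that TFEB relatives bind. RefSeq (GRCm38.p6) gave windows of 250 bases before to 50 after a start site for 33 of the 37 genes; Ctsb, Ctsh, Npc1 and Atp6v1h have no entry. The windows lie at chrX:134600956-134601255, minus strand (Gla), chr7:142387778-142388077, minus strand (Ctsd), chr8:13158911-13159210, plus strand (Lamp1) and chr8:3500269-3500568, plus strand (Mcoln1). Capitals mark TCACGTG or, on the other strand, CACGTGA; where these overlap, the first is marked.
Gla: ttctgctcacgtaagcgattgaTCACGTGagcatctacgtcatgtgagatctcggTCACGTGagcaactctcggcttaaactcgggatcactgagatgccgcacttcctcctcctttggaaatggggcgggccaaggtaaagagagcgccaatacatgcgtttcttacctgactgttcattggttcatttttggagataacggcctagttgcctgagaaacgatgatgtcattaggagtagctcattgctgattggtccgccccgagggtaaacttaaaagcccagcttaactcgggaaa
Ctsd: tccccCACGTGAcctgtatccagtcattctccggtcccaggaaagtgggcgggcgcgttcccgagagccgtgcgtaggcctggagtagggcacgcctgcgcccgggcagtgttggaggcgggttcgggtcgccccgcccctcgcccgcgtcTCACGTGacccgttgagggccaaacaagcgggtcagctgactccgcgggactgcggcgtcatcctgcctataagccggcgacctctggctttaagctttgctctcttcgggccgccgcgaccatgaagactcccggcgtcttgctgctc
Lamp1: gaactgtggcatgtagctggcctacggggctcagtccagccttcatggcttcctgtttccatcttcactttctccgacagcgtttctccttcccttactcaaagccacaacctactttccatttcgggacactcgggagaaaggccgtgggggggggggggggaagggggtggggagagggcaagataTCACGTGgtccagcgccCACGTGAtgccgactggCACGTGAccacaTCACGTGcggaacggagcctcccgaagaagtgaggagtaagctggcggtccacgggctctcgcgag
Mcoln1: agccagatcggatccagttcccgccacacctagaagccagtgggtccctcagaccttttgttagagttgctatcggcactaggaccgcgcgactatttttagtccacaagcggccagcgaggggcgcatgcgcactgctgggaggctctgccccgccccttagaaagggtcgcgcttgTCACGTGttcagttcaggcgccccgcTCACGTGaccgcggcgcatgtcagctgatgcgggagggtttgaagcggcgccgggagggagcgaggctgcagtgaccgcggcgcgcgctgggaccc

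The letters TCACGTG, read on both strands, occurred in a window of 11 of the 33 genes, against 4.29% of 27025 genes with a promoter entry. Lamp1 held 4 copies, within 62 bases before its start site, and Gla and Ctsd held 2 each. The copies were found in 4 of the 11 genes that were higher in HFD and have an entry (Ctsd, Gla, Glb1 and Lgmn) and in 7 of the 22 others (Atp6v0d1, Atp6v1a, Ctsa, Gaa, Lamp1, Mcoln1 and Naglu). Lgmn has more than 1 window: that at chr12:102439043-102439342 holds a copy and that at chr12:102439679-102439978 holds none. The core CACGTG, which TCACGTG contains, was in 4 of the 11 and 9 of the 22, against 8.09% of all genes. The longer TCACGTGA was in 2 and 4, against 1.12%. Extended by a G before and a C after, the palindrome was in none of the 33, against 0.37%. The core GAGGAAGT of the myeloid factor PU.1, a member of the ETS family, overlaps none of these letters. It was in 3 of the 11 (Ctsc, Gla and Gusb) and in 0 of the 22, against 3.69%. Higher genes without it include Cd68, Laptm5, Lgmn, Grn and Ctsd. The difference between the 11 and the 22 was not tested. Such matches are letters in a window and say nothing of binding.

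Between the diets, some of the proteases (4 of 11), glycosidases (3 of 9) and genes of lipid hydrolysis, lipid transfer and the saposins (3 of 7) were higher in HFD. Both leukocyte membrane proteins were higher too, whereas the abundant membrane glycoproteins and the proton pump subunits were not called. Of the 37 genes 12 rose and none fell when tested with edgeR's quasi-likelihood method, with p-values adjusted by Benjamini-Hochberg over 14542 genes and 0.05 as the limit. Among all tested genes 13.0% were called higher and 7.05% lower. The 12 are Lgmn, Ctsb, Ctsc, Ctsd, Gla, Glb1, Gusb, Npc2, Psap, Grn, Cd68 and Laptm5. At an unadjusted p under 0.05 there were 15 upward and 3 downward, beside 19.9% and 13.5% of all genes. With DESeq2 15 rose and none fell, beside 17.6% and 9.10% of all genes. With limma voom 10 rose and 1 fell, beside 8.67% and 9.14%, and with sample quality weights 18 rose and 3 fell, beside 18.0% and 18.9%. The median log2 change was 0.12 over the 37 genes and 0.02 over all genes. In bulk liver, more cells of a type and more RNA per cell cannot be told apart.

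Without HFD 1 and HFD 2 the count was 20 higher and 1 lower, beside 17.9% higher and 10.4% lower among all genes, and the median log2 change was 0.29 against 0.03. All 12 genes were called higher again, and the 8 added were Atp6v1a, Ctsl, Ctsz, Hexa, Idua, Man2b1, Ppt1 and Tpp1. The 1 that fell was Ctsf. By role, 7 of 11 proteases, 6 of 9 glycosidases, 4 of 7 lipid genes, 2 of 7 membrane proteins and regulators and 1 of 3 pump subunits were then higher. With HFD 6 left out as well, 20 rose and 2 fell (Ctsf and Lamp2), beside 2723 and 2241 of 14922 genes in all, of which the first is 18.2%. Every HFD library lay above every chow library for 5 of the 37 (Lgmn, Ctsd, Gla, Cd68 and Laptm5), as for 2.39% of all tested genes. The reverse held for 1 of the 37, Lamp2, as for 2.70% of all.

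**Figure D2:**
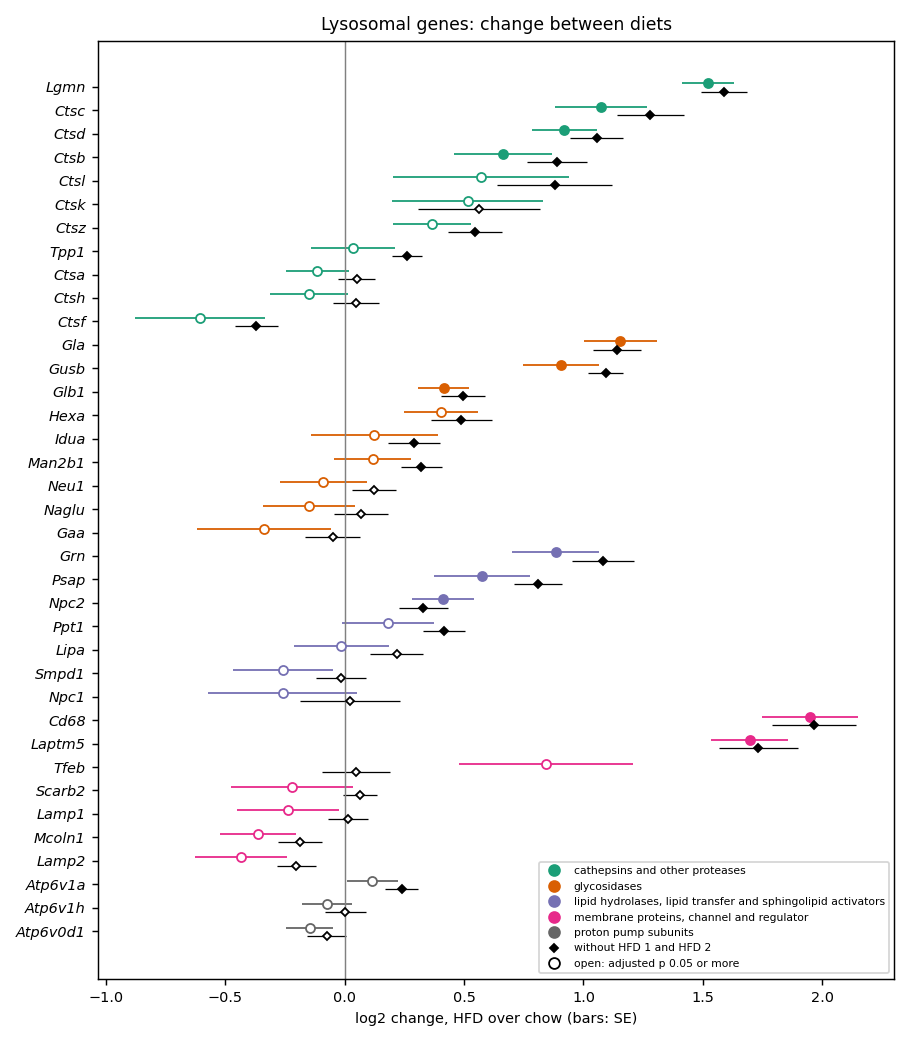
Log2 change of HFD over chow for the 37 genes, grouped by role; large points use all 20 libraries, small black diamonds leave out HFD 1 and HFD 2, and bars are SE. Filled symbols passed an adjusted p of 0.05, and Cd68, Laptm5 and Lgmn lie farthest to the right at 1.95, 1.70 and 1.52.

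Among the 11 proteases 4 rose and none fell (median log2 change 0.51), beside 13.0% and 7.05% of all genes. At an unadjusted p under 0.05 the counts were 5 and 1. Lgmn (chromosome 12, 102394084 to 102439813, GRCm38), the asparaginyl endopeptidase legumain that activates cathepsins, had 65.0, 74.8 and 96.6 CPM as the lowest, median and highest chow values and 208, 223 and 287 CPM in HFD. The groups were far apart, and the HFD libraries varied little, with a coefficient of variation of 10.6%, the smallest of the 37 genes. Its log2 change was 1.52 (SE 0.110, adjusted p = 4.29e-09), a 2.87-fold rise, and 1.59 without HFD 1 and HFD 2. The lowest HFD values of legumain, 209 and 208 CPM in HFD 1 and HFD 2, were close to the next, 211 CPM in HFD 5.

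Ctsd (chromosome 7, 142375911 to 142388038), the aspartic protease cathepsin D, ranged from 123 to 188 CPM in chow with a median of 144, and from 192 to 386 CPM in HFD with a median of 279. The lowest HFD library, HFD 1, was just above the highest chow library. Its log2 change was 0.92 (SE 0.137, adjusted p = 4.13e-05), and 1.05 without HFD 1 and HFD 2. Ctsc, the dipeptidyl peptidase that activates granule proteases of neutrophils and other leukocytes, ranged from 51.0 to 86.5 CPM in chow (median 67.2) and from 65.8 to 245 CPM in HFD (median 145). The 2 lowest, HFD 1 and HFD 2, fell within the chow range, and the 8 others lay above it. The log2 change of Ctsc was 1.07 (SE 0.193, adjusted p = 0.000355), and 1.28 without those libraries.

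Ctsb, cathepsin B, ranged from 534 to 764 CPM in chow (median 628) and from 379 to 1441 CPM in HFD (median 1127). The groups overlapped: HFD 1 and HFD 2 were below all chow libraries, HFD 6 was at 648 CPM and the other 7 were above all of them. Its log2 change was 0.66 (SE 0.206, adjusted p = 0.0261) and 0.89 without HFD 1 and HFD 2 (adjusted p = 2.46e-05); with limma voom the call was lost (adjusted p = 0.265). Ctsb overlaps the opposite-strand gene Fdft1 by 774 bases, and whether counting used the strand is not given in the sources used here.

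Ctsl, cathepsin L, was the most divided of the proteases. Chow libraries had 543 to 778 CPM, whereas HFD 1 and HFD 2 had 148 and 142 CPM, HFD 6 had 2994 CPM and HFD 10 had 1395 CPM. The other 6 HFD libraries had 694 to 901 CPM. With all libraries it was not called (log2 change 0.57, SE 0.367, adjusted p = 0.289). Without HFD 1 and HFD 2 it rose by 0.88 (adjusted p = 0.00989), and with HFD 6 left out too by 0.48 (adjusted p = 0.00498).

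Of the other proteases, Ctsz, a carboxypeptidase, had a log2 change of 0.37 (adjusted p = 0.117), and of 0.55 without HFD 1 and HFD 2 (adjusted p = 0.00121). Tpp1, the tripeptidyl peptidase lost in a childhood neuronal ceroid lipofuscinosis, had 0.03, and without these libraries it rose by 0.26 (adjusted p = 0.00447). Ctsa, which protects neuraminidase and beta-galactosidase in a complex, and the aminopeptidase Ctsh had log2 changes of −0.11 and −0.15 with adjusted p = 0.578 and adjusted p = 0.559, and of 0.05 each without HFD 1 and HFD 2. Ctsf, another cysteine cathepsin, had a log2 change of −0.61 that was not called (adjusted p = 0.122), and without HFD 1 and HFD 2 it fell by 0.37 (adjusted p = 0.00484). Ctsk had 0.135 to 1.10 CPM in chow and 0 to 1.40 CPM in HFD, at or near the limit set by depth in HFD 1, and was not called (log2 change 0.51, adjusted p = 0.263, and 0.56 without HFD 1 and HFD 2).

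**Figure D3:**
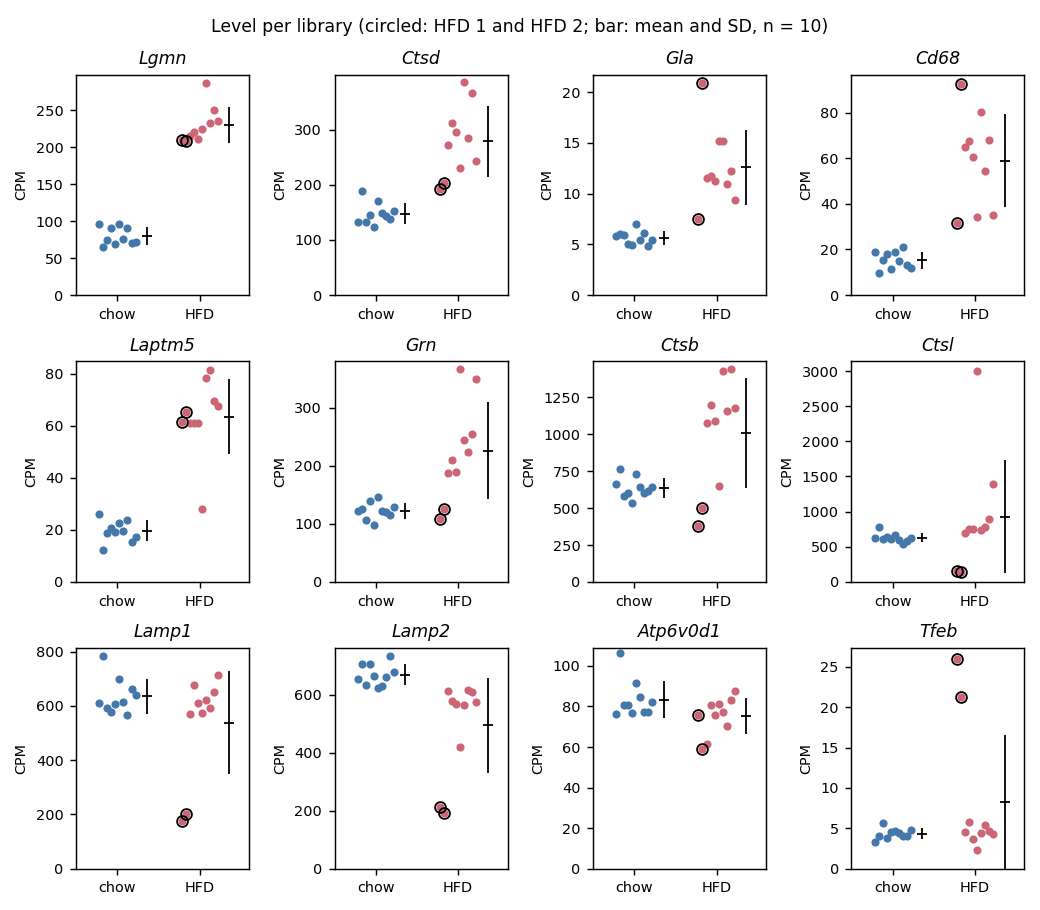
CPM per library for 12 of the genes; blue points are chow, red points HFD, circles mark HFD 1 and HFD 2, and bars at the right of each group are mean and SD (n = 10). Lgmn, Ctsd, Gla, Cd68 and Laptm5 do not overlap between the diets, Ctsl reaches 2994 CPM in HFD 6, and Tfeb is high in the circled libraries.

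Among the 9 glycosidases 3 rose and none fell (median log2 change 0.12), beside 13.0% and 7.05% of all genes. At an unadjusted p under 0.05 the counts were 4 and 0, and limma voom and DESeq2 called none lower. Gla (chromosome X, 134588149 to 134601125), the alpha-galactosidase that is deficient in Fabry disease, ranged from 4.82 to 7.05 CPM in chow (median 5.65) and from 7.51 to 20.9 CPM in HFD (median 11.7). The groups did not overlap, and the lowest and highest HFD values were those of HFD 1 and HFD 2. Its log2 change was 1.15 (SE 0.153, adjusted p = 9.84e-06), and 1.14 without those libraries.

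Gusb, beta-glucuronidase, ranged from 25.3 to 32.0 CPM in chow (median 27.3) and from 17.9 to 68.4 CPM in HFD (median 55.2). HFD 1 alone lay below the chow range and the 9 others above it. The log2 change of Gusb was 0.91 (SE 0.160, adjusted p = 0.000280) and 1.09 without HFD 1 and HFD 2. Glb1, the beta-galactosidase of ganglioside breakdown, rose less, from 11.2 to 14.5 CPM in chow (median 12.9) to 12.3 to 21.1 CPM in HFD (median 17.2), a log2 change of 0.42 (SE 0.106, adjusted p = 0.00818) and of 0.50 without HFD 1 and HFD 2. HFD 6 and HFD 2 lay within the chow range and the 8 other HFD libraries above it. Glb1 shares 6172 bases with Tmppe on the same strand, so the reads of the pair may not be separable.

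Hexa, the alpha subunit of hexosaminidase A, had a log2 change of 0.40 (adjusted p = 0.0682), which became 0.49 without HFD 1 and HFD 2 (adjusted p = 0.00684). Man2b1, the alpha-mannosidase, had 0.12, and 0.32 without them (adjusted p = 0.00759). Idua, the iduronidase of heparan and dermatan sulfate breakdown, had no count in HFD 1, which allows up to 0.866 CPM there, and an HFD median of 4.55 CPM against 3.55 CPM in chow, with overlapping groups. Its call without HFD 1 and HFD 2 was borderline (log2 change 0.29, adjusted p = 0.0498), it was lost when HFD 6 was left out too (adjusted p = 0.0740), and the gene overlaps Slc26a1 and Dgkq on the opposite strand. Neu1, Naglu and Gaa, which remove sialic acid, N-acetylglucosamine and glucose from glycogen respectively, had log2 changes of −0.09, −0.15 and −0.34 with adjusted p = 0.772, adjusted p = 0.627 and adjusted p = 0.423. The values without HFD 1 and HFD 2 were 0.12, 0.07 and −0.05.

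Of the 7 genes of lipid hydrolysis, lipid transfer and the saposins 3 rose and none fell (median log2 change 0.18), beside 13.0% and 7.05% of all genes. At an unadjusted p under 0.05 the counts were again 3 and 0, and DESeq2 and limma voom called none lower. Grn, the progranulin precursor of the granulins, ranged from 98.1 to 147 CPM in chow (median 122) and from 109 to 367 CPM in HFD (median 217). Only HFD 1 and HFD 2 lay within the chow range, the 8 others above it, with HFD 6 highest. Its log2 change was 0.88 (SE 0.182, adjusted p = 0.00140) and 1.08 without HFD 1 and HFD 2.

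Psap ranged from 428 to 547 CPM in chow (median 495) and from 250.6 to 1047 CPM in HFD (median 814). Both HFD 1 and HFD 2 were below the chow range, and the 8 other libraries above it. The log2 change of Psap was 0.58 (SE 0.202, adjusted p = 0.0481), a call kept in 3 of 20 refits that each left out 1 library (adjusted p up to 0.0866), whereas without HFD 1 and HFD 2 it was 0.81 (adjusted p = 4.73e-06). Npc2, the soluble protein that hands cholesterol to NPC1, ranged from 83.0 to 114 CPM in chow (median 94.4) and from 70.2 to 191 CPM in HFD (median 125). HFD 6 was the lowest and HFD 2 the highest, and 8 HFD libraries lay above the chow range. Npc2 had a log2 change of 0.41 (SE 0.130, adjusted p = 0.0297), which was not called without chow 3, chow 5 or chow 9 (adjusted p up to 0.0552), and of 0.33 without HFD 1 and HFD 2 (adjusted p = 0.0212).

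Npc1, the membrane cholesterol exporter that works with Npc2, was not called (log2 change −0.26, SE 0.311, adjusted p = 0.595). Its chow values were 76.9 to 125 CPM, whereas HFD 1 and HFD 2 had 16.7 and 19.0 CPM, with 190 CPM in HFD 6 and 48.8 to 117 CPM in the other 7 HFD libraries, so its HFD values lay on both sides of chow. The log2 change of Npc1 was 0.02 without HFD 1 and HFD 2. Lipa, the acid lipase that hydrolyses cholesteryl esters and triglycerides, had 173 to 271 CPM in chow and 90.1 to 296 CPM in HFD (log2 change −0.01, SE 0.198, adjusted p = 0.971). Without HFD 1 and HFD 2 its log2 change was 0.22 (adjusted p = 0.158), and with HFD 6 left out too it rose by 0.27 (adjusted p = 0.0231). Smpd1, acid sphingomyelinase, had a log2 change of −0.26 (adjusted p = 0.408) and −0.02 without HFD 1 and HFD 2. Ppt1, the palmitoyl thioesterase, had 0.18 (adjusted p = 0.546) and rose by 0.42 without them (adjusted p = 0.00163).

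**Figure D4:**
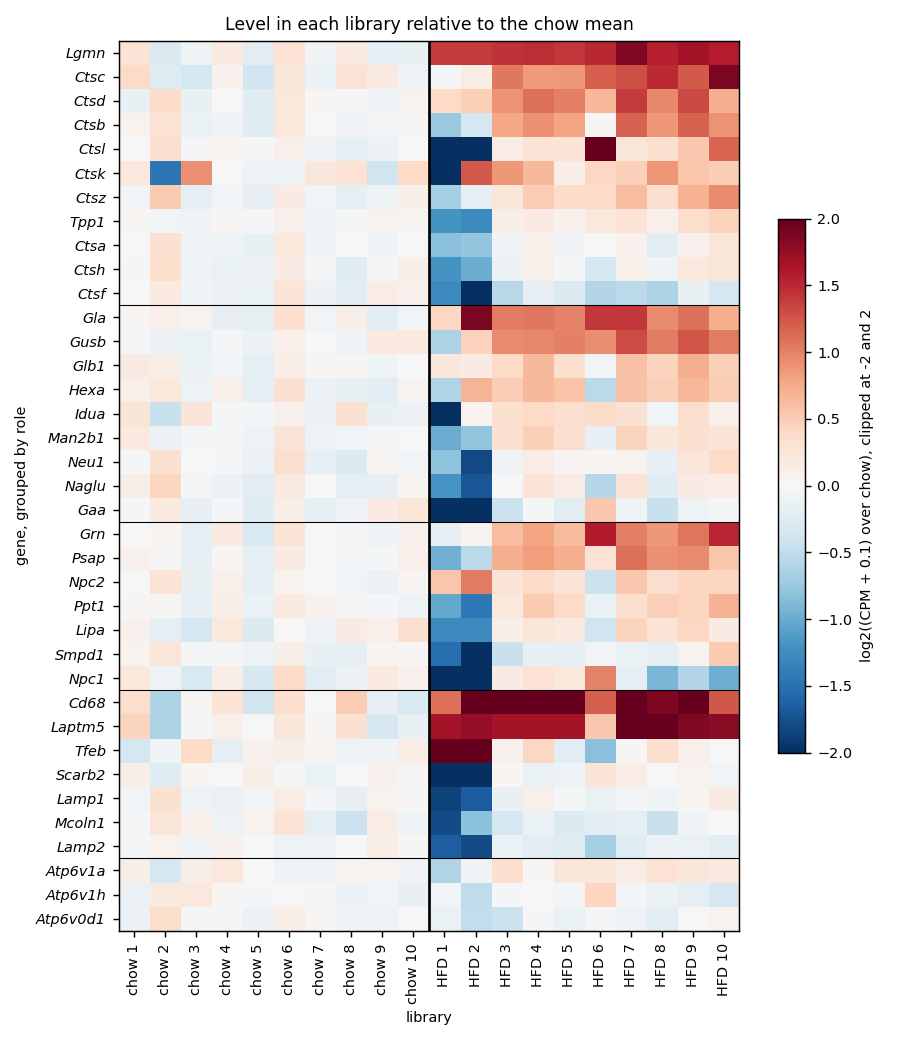
Log2 ratio of each library to the chow mean (CPM plus 0.1; red higher, blue lower, clipped at the ends of the scale) for the 37 genes in rows, grouped by role, and the 20 libraries in columns. The columns HFD 1 and HFD 2 are blue for most rows. Lgmn, Ctsd, Gla, Glb1, Npc2, Cd68, Laptm5 and Tfeb lie above the chow mean in both of these columns. HFD 6 differs from HFD 3 to 5 and 7 to 10 in Ctsl, Npc1, Laptm5 and Tfeb.

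Of the 7 membrane proteins and regulators 2 rose and none fell (median log2 change −0.22), beside 13.0% and 7.05% of all genes. At an unadjusted p under 0.05 the counts were 3 and 2. DESeq2 called 3 higher and none lower, and limma voom 2 higher and 1 lower. Cd68 (chromosome 11, 69664213 to 69666153), the heavily glycosylated membrane protein of macrophage lysosomes, ranged from 9.64 to 21.01 CPM in chow (median 15.1) and from 31.8 to 92.5 CPM in HFD (median 62.7). Its groups did not overlap, and HFD 1, HFD 6 and HFD 10 (31.8, 34.2 and 35.1 CPM) were the lowest of HFD. Cd68 had a log2 change of 1.95 (SE 0.200, adjusted p = 4.64e-07), a 3.86-fold rise and the largest of the 37 genes, and of 1.96 without HFD 1 and HFD 2. Laptm5 (chromosome 4, 130913125 to 130936141), a leukocyte lysosomal protein, ranged from 12.4 to 26.2 CPM in chow (median 19.4) and from 28.0 to 81.2 CPM in HFD (median 63.2). HFD 6 held its lowest HFD value, 28.0 CPM, and the other 9 lay between 60.8 and 81.2 CPM. The log2 change of Laptm5 was 1.70 (SE 0.160, adjusted p = 1.58e-07), and 1.73 without HFD 1 and HFD 2.

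The membrane proteins found in all cells were not called. Lamp1 ranged from 565 to 782 CPM in chow (median 613) and from 176 to 712 CPM in HFD (median 603). The values of HFD 1 and HFD 2 (176 and 200 CPM) were far below, and the other 8 HFD libraries lay within the chow range. Its log2 change was −0.24 (SE 0.212, adjusted p = 0.460), and 0.01 (SE 0.0843) without HFD 1 and HFD 2. Lamp2, whose splice forms serve membrane stability and chaperone-mediated autophagy, ranged from 621 to 733 CPM in chow (median 662) and from 193 to 615 CPM in HFD (median 571). All 10 HFD libraries lay below all 10 chow libraries, yet the test did not call it (log2 change −0.43, SE 0.191, adjusted p = 0.113). In HFD 3 to 10 it ranged from 421 to 615 CPM, and without HFD 1 and HFD 2 the log2 change was −0.20 (adjusted p = 0.0744); limma voom called it lower (adjusted p = 0.0416). Scarb2, the receptor that carries glucocerebrosidase to lysosomes, had a log2 change of −0.22 (adjusted p = 0.578) and 0.06 without HFD 1 and HFD 2.

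Mcoln1, the TRPML1 channel that releases lysosomal calcium, ranged from 16.5 to 26.8 CPM in chow (median 22.4) and from 6.35 to 22.1 CPM in HFD (median 18.6), with overlapping groups (log2 change −0.36, SE 0.158, adjusted p = 0.111, and −0.19 without HFD 1 and HFD 2). Tfeb, the regulator itself, ranged from 3.34 to 5.71 CPM in chow (median 4.27) and from 2.37 to 26.0 CPM in HFD (median 4.62). Libraries HFD 1 and HFD 2 had 26.0 and 21.3 CPM, whereas the other 8 libraries had 2.37 to 5.79 CPM, with HFD 6 the lowest. Tfeb was not called by edgeR (log2 change 0.84, SE 0.364, adjusted p = 0.106), whereas DESeq2 called it higher. Without HFD 1 and HFD 2 the log2 change of Tfeb in edgeR was 0.05 (SE 0.143). Of the proton pump subunits none was called in either direction by edgeR, DESeq2 or limma voom, nor at an unadjusted p under 0.05; with sample quality weights 1 was called higher. Atp6v0d1 had 76.3 to 106 CPM in chow and 59.2 to 87.4 CPM in HFD (log2 change −0.15, SE 0.0977, and −0.08 without HFD 1 and HFD 2). Atp6v1h had 53.0 to 68.3 and 41.2 to 79.2 CPM (−0.07, SE 0.105, and 0.00 without them). Atp6v1a had 32.6 to 47.7 and 27.1 to 52.2 CPM (0.12, SE 0.108), and without HFD 1 and HFD 2 it rose by 0.24 (adjusted p = 0.0134).

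The rest of the pathway was described by a list of 78 other lysosome genes, all tested, of which 14 rose and 3 fell (median log2 change 0.07). These are 17.9% and 3.85% of the list, beside 13.0% and 7.05% of all genes. Without HFD 1 and HFD 2 the counts were 29 and 5, or 37.2% and 6.41%, beside 17.9% and 10.4%. Ctss, the macrophage cathepsin that trims the MHC class II invariant chain, ranged from 30.5 to 66.0 CPM in chow and 102 to 167 CPM in HFD, with no overlap (log2 change 1.46, SE 0.146, adjusted p = 3.57e-07), and 1.53 without HFD 1 and HFD 2. Cd63, a tetraspanin of late endosomes, rose by 2.96 (adjusted p = 3.01e-06), with its highest value in HFD 6 (67.9 CPM), by 3.05 without HFD 1 and HFD 2, and by 2.51 without HFD 6 as well. Among 15 other proton pump genes 3 rose and none fell, or 6 and 0 without HFD 1 and HFD 2 (all libraries: 5 and 0 at an unadjusted p under 0.05; none lower by DESeq2 or limma voom). Atp6v1b2, a catalytic-sector subunit, ranged from 43.0 to 58.2 CPM in chow and from 76.9 to 119 CPM in HFD (log2 change 0.82, SE 0.0960, adjusted p = 2.11e-06), and 0.80 without HFD 1 and HFD 2.

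Of the sorting genes Sort1, the sortilin receptor, fell by 0.89 (SE 0.294, adjusted p = 0.0364), and by 0.64 without HFD 1 and HFD 2; all 10 HFD libraries lay below all of chow. Arsa, the arylsulfatase of sulfatide breakdown, fell by 0.60 (adjusted p = 0.0410) and by 0.38 without HFD 1 and HFD 2, and also lay below chow in 10 of 10 HFD libraries. Lamtor2, a scaffold of mTORC1 at the lysosome, fell by 0.39 (adjusted p = 0.0487), and had a log2 change of −0.31 without HFD 1 and HFD 2 (adjusted p = 0.0847). Among 11 genes of the MiT family (the transcription factors related to TFEB) and of mTORC1 at the lysosome 6 rose and 1 fell, or 5 and 0 without HFD 1 and HFD 2. The shares among all genes were 13.0% and 7.05%, or 17.9% and 10.4% without those libraries. Tfec, a MiT member of macrophages, ranged from 0.673 to 1.81 CPM in chow and from 2.37 to 13.3 CPM in HFD (log2 change 1.72, SE 0.277, adjusted p = 0.000104), and rose by 1.38 without HFD 1 and HFD 2. Mitf rose by 0.63 (adjusted p = 0.0313) and Tfe3 by 0.45 (adjusted p = 0.0376), or by 0.48 and 0.30 without those libraries; with HFD 6 left out too Tfe3 was not called (0.16, adjusted p = 0.0601). Rragd, a RAG GTPase that recruits mTORC1, ranged from 0.539 to 1.56 CPM in chow and from 1.92 to 6.35 CPM in HFD (log2 change 1.95, SE 0.248, adjusted p = 5.93e-06), and 1.86 without HFD 1 and HFD 2. Fnip1, the partner of folliculin, had 14.6 to 33.9 CPM in chow, but 583 (HFD 1) and 365 CPM (HFD 2), and 14.2 to 41.7 CPM in the other HFD libraries. It was called higher (log2 change 2.38, adjusted p = 0.0210), and without HFD 1 and HFD 2 its log2 change was 0.04.

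Cell type markers were compared between the diets as well. Among all genes 13.0% rose and 7.05% fell, or 17.9% and 10.4% without HFD 1 and HFD 2. Of 16 macrophage and Kupffer cell markers 14 rose and none fell ( none lower at an unadjusted p under 0.05 or by DESeq2 or limma voom), and their summed level ranged from 528 to 959 CPM in chow and from 1391 to 2702 CPM in HFD. None of the 16 was at 0 in any chow library or in any HFD library. The sum is of plain CPM, so abundant markers weigh most in it. In HFD 6 Marco alone gave 630 of the 1429 CPM. Clec4f (25.3 CPM) and Timd4 (7.91 CPM) lay below every chow library there, and Cd5l (183 CPM) lay within the chow range. Vsig4, C1qb and Fcgr1 in HFD 6 were above every chow library. Of 6 tested neutrophil markers all 6 rose, and the sum over the 8 listed was 3.89 to 14.0 CPM in chow and 20.8 to 473 CPM in HFD; Ly6g, with no counts in chow, and Ltf were not tested. Of 8 T and B cell markers 3 rose, of 8 stellate cell markers 4 rose, of 8 sinusoidal endothelial markers none was called (2 upward and none downward at an unadjusted p under 0.05, none by DESeq2 or limma voom), of 5 tested cholangiocyte markers 1 rose, and of 9 measured hepatocyte markers 2 fell (Ttr and Apoa2). Without HFD 1 and HFD 2, 15 of the 16 macrophage markers, 6 of 7 tested neutrophil markers, 3 T and B cell, 6 stellate cell, 2 endothelial and 2 cholangiocyte markers rose, while 1 hepatocyte marker rose and 2 fell. The hepatocyte sum ranged from 83664 to 131870 CPM in chow and from 19652 to 94865 CPM in HFD. The part of these cell types in the changes of the 37 genes was not tested.

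Within the chow group, where diet does not enter, each gene was set against the summed macrophage markers of the same library. Of 74 relations computed (37 genes in each diet), 3 passed an adjusted p of 0.05, all in chow: Lgmn, Cd68 and Laptm5. Cd68 and Laptm5 are themselves largely leukocyte genes, so a relation of theirs to macrophage markers was likely beforehand. Whether these relations bear on the changes between the diets was not tested. For Lgmn Pearson r was 0.97 and Spearman rho 0.94 (n = 10, permutation p = 2e-05 and 0.00022, adjusted p = 0.0015 and 0.0074), and r was 0.96 without chow 1 and chow 2, the libraries farthest from the median marker sum. For Cd68 r was 0.96 and rho 0.96 (permutation p = 6e-05 and 7e-05, adjusted p = 0.0015 and 0.0052), and for Laptm5 r was 0.91 and rho 0.93 (permutation p = 5e-05 and 0.00030, adjusted p = 0.0015 and 0.0074); without chow 1 and chow 2 r was 0.96 and 0.88. Chow 2 had the lowest marker sum, 528 CPM, and also the lowest Lgmn, Cd68 and Laptm5 of the chow libraries, while its Ctsl, Ctsz and Lamp1 were the highest of chow.

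For Ctsd r in chow was −0.16 and for Lamp1 −0.49 (permutation p = 0.66 and 0.15, adjusted p = 0.73 and 0.35), with rho of −0.13 and −0.44 (permutation p = 0.73 and 0.20, adjusted p = 0.84 and 0.43); without chow 1 and chow 2 r was 0.55 and −0.21. Within HFD none of the 37 passed, although r was highest for Hexa and Ctsb, at 0.86 and 0.80 (permutation p = 0.013 and 0.0076, adjusted p = 0.15 and 0.11), with rho of 0.56 and 0.77 (permutation p = 0.096 and 0.013, adjusted p = 0.30 and 0.12). For Ctsd and Lamp1 r in HFD was 0.67 and 0.52 (permutation p = 0.035 and 0.083, adjusted p = 0.17 and 0.26), with rho of 0.60 and 0.67 (permutation p = 0.075 and 0.039, adjusted p = 0.30 and 0.19). In HFD r was 0.64 for Lgmn, 0.56 for Cd68 and 0.76 for Laptm5 (n = 10, permutation p = 0.047, 0.095 and 0.0068, adjusted p = 0.19, 0.28 and 0.11), with rho of 0.72, 0.54 and 0.78 (permutation p = 0.023, 0.11 and 0.011, adjusted p = 0.18, 0.30 and 0.12). Without HFD 1 and HFD 6, the libraries farthest from the median marker sum, r was 0.90, −0.12 and 0.73 for these 3, −0.07 and 0.54 for Hexa and Ctsb, and 0.47 and 0.31 for Ctsd and Lamp1. Whether r differs between the diets or between genes was not tested. These relations share library, depth and scaling, and the chow libraries 3 and 5 were the most alike of all pairs, so they may be less independent than their number.

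**Figure D5:**
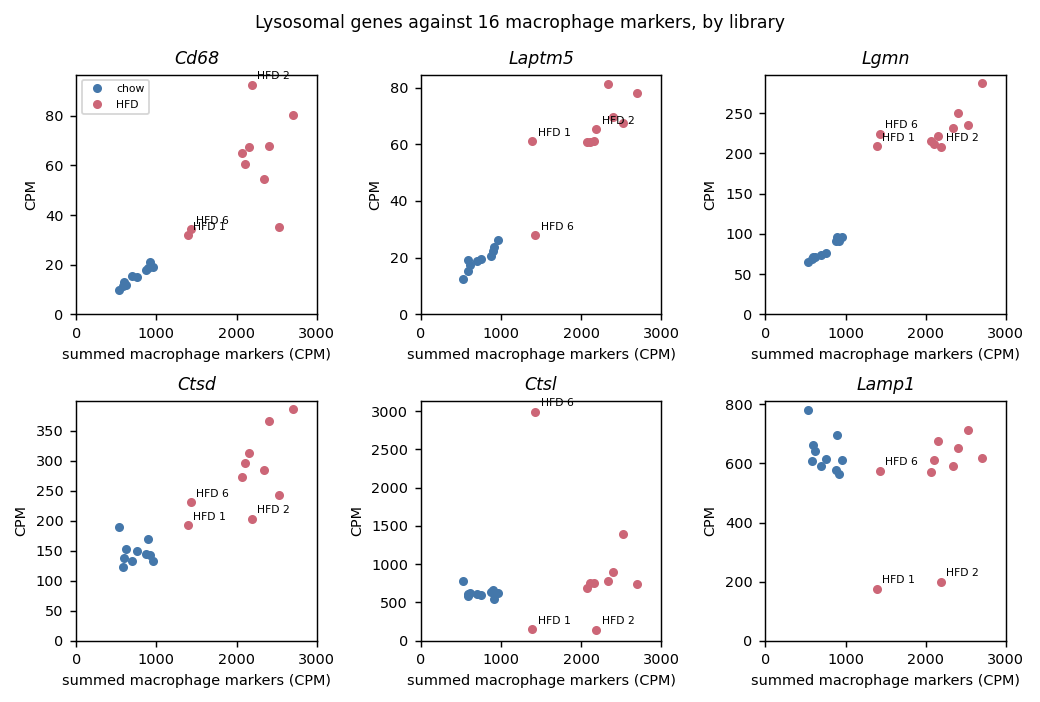
CPM of 6 genes against the summed CPM of 16 macrophage markers in the same library; blue points are chow, red points HFD. In chow Lgmn, Cd68 and Laptm5 lie along a line, Ctsd, Ctsl and Lamp1 do not, and HFD 6 is high for Ctsl and low for Laptm5.

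Spread within a diet also differed. The coefficient of variation of the 37 genes over 10 chow libraries ran from 4.58% (Tpp1) to 43.0% (Ctsk), with a median of 11.7%. Over 10 HFD libraries it ran from 10.6% (Lgmn) to 99.8% (Tfeb), with a median of 33.0%, and over HFD 3 to 10 from 6.51% (Atp6v1a) to 70.0% (Ctsl), with a median of 16.5%. The difference in spread was not tested.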

How the data were processed

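RNA of 20 mouse liver samples, 10 per diet, was sequenced. The authors deposited a table of read counts per gene and library and a table of FPKM, whose values follow from the deposited count, the column total and a single gene length in each of 27216 genes with counts (relative tolerance 1e-06). Per the submitters' processing notes, fastp was used and the build is mm10. The aligner, counter, annotation and strand setting were not given in the sources used here. GENCODE M21 (GRCm38) held 55141 of the 55401 IDs, and the rest held at most 0.00852% of a library's counts. Columns were matched to samples by the labels' descriptions, and groups were taken from the titles.

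The test was edgeR's (version 4.0.16, R 4.3.3), after a low-count filter (filterByExpr, at least 10 counts and 15 in total) and TMM scaling, with a robust quasi-likelihood fit with diet as the only term, two-sided F test, Benjamini-Hochberg adjustment over 14542 genes, threshold 0.05. CPM is the count per 1000000 of the TMM-scaled library size. Alternatives used DESeq2 1.42.0, limma 3.58.1 (voom, with and without sample quality weights, and limma-trend on log2(FPKM + 1) or log2(FPKM + 0.1)), other scalings and filters, a replicate block and left-out libraries. On simulated counts of 14352 genes at these group sizes, 61.9% of 97 genes changed 2-fold and 96.9% of 97 changed 4-fold came back as calls, while 5 of the 159 calls made were false. The simulated counts were drawn gene by gene, with no shared shift in HFD 1 and HFD 2. Such shares may therefore not hold for the real libraries. Relations used two-sided permutation tests (100000 resamples). No pair of libraries of a diet matched within sampling noise (chi-square per gene at least 10.6, for chow 3 and chow 5; HFD 4 and HFD 5 gave 14.1). The limit of 3 counts covers counting error only.

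The members and lists were chosen with earlier results of these data known. All 37 genes are given; of the 78 other lysosome genes the text names up to 4 per direction with the smallest p, with Mitf, Tfe3 and Tfec. A gene that this rule names is not reported here. Rragd and Fnip1, the relations to macrophage markers, the promoter motifs and the setting without HFD 1, HFD 2 and HFD 6 were chosen after seeing the data. One symbol of the hepatocyte list, Tf, was not matched. Of the 37 genes 11 overlap another gene with counts. Python 3.11.15, numpy 2.4.6, pandas 2.3.3 and matplotlib 3.10.9 made tables and figures.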

Additional observations from a re-analysis of the deposited data

Results flagged for a closer look

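For 74 sets of 10 values (37 genes in each diet), the gap of the highest or lowest library to its neighbour was divided by the range, and 8 exceeded Dixon's critical value for 10 samples; chance flags about 1 set in 20. They fell in 3 libraries. In chow 2, Ctsl was at 778 CPM (next 668), Ctsz at 256 CPM (next 199) and Atp6v0d1 at 106 CPM (next 91.3), each the highest of chow. In HFD 6, Ctsl was at 2994 CPM (next 1395) and Atp6v1h at 79.2 CPM (next 58.3), the highest of HFD, whereas Laptm5 at 28.0 CPM (next 60.8) was the lowest. In HFD 1, Idua was at 0 CPM (no counts) and Atp6v1a at 27.1 CPM (next 39.1), the lowest of HFD.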

How the results depend on the processing

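Against 12 lysosomal genes higher and none lower, the counts were 3 and 0 with library totals alone, 0 and 0 with limma-trend on log2(FPKM + 1) or (FPKM + 0.1), 20 and 1 without HFD 1 and HFD 2, and 20 and 2 without HFD 6 as well; limma voom called 1 lower, with sample quality weights 3. Refits without 1 library gave 10 to 14 higher and 0 to 1 lower. Among all 14542 tested genes, 1886 rose and 1025 fell in the main fit. With library totals alone 507 of these rose and 93 fell, and in the FPKM fits 431 and 285 or 286 and 209. With no filter 2363 rose and 717 fell of 27216 genes. For the 78 other lysosome genes, 14 higher and 3 lower became 5 and 0 with library totals alone, 4 and 0 or 3 and 0 with the FPKM fits, 22 higher with DESeq2, 32 and 10 with quality weights, 0 lower with no filter, 29 and 5 without HFD 1 and HFD 2, and 29 and 6 without HFD 6 too; refits without 1 library gave 11 to 19 and 0 to 5. The median log2 change of 0.12 was 0.10 to 0.26 without 1 library, and −0.19 and −0.36 in the FPKM fits, where that of all genes was −0.14 and −0.39. The totals behind FPKM include mitochondrial and rRNA counts. In the fit with 0.1 added Glb1, Npc2 and Psap turned to −0.0438, −0.0881 and −0.0113 and with 1 added Npc2 to −0.0570, none called; Lipa was 0.27 without HFD 1, 2 and 6. The cause of the other shifts was not tested.

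With the replicate number as a block, 8 of the 37 genes were higher and none lower, and 9 and 0 of the 78. Among all 14542 genes 913 rose and 661 fell with this block, against 1886 and 1025 without it. The calls of Ctsb, Glb1, Npc2 and Psap were lost. Same-numbered chow and HFD libraries correlated between −0.11 and 0.13 in their deviations from the group mean, over 0.1 in 2 of 10 pairs. Of 10 chow libraries 2 correlated best with their own number. The labels name no pairing. These correlations cannot exclude one, because the HFD mean includes HFD 1 and HFD 2. Depth limits Ctsk and Idua in HFD 1 and Ctsf in HFD 2, where 0.698 CPM lies near the 0.524 CPM of 3 counts.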
